A study of Mus musculus with 3 samples.

Results

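The 10 genes described here carry the LPS signal from the cell surface to the first kinases: the co-receptors Cd14 and Ly96, the adaptors Myd88, Tirap, Ticam1 and Ticam2, the kinase genes Irak2 and Irak3, the ubiquitin ligase Traf6 and the adaptor Tollip. They were found by gene symbol on the arrays, 10 of 36870 gene names, with 22 probes of 60 bases. Of these probes, 19 were well above background on all 3 arrays. RNA came from RAW264.7, an established mouse macrophage line, in 3 conditions with 1 array each: LPS alone, Lactiplantibacillus plantarum LOC1 before LPS, and L. plantarum LOC3 before LPS. All 3 conditions were stimulated for 3 h with LPS, a dose given as 50 ng/mL in the methods and 100 ng/mL in the results text. The lactobacilli were given for 12 h by the series description and 24 h by the methods, and were washed off before LPS. Unchallenged macrophages enter only through the deposited ratios. With 1 array per condition there is no SD, test or p-value between conditions, and every difference below is a description of these arrays.

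LPS is handed by CD14 to MD-2, the product of Ly96, which sits on TLR4. The paired receptors bind MyD88 through TIRAP, and IRAK kinases and TRAF6 then drive NF-kB and MAP kinase signalling. From endosomes the receptor signals through TRIF (Ticam1) and its bridging adaptor TRAM (Ticam2), which lead to IRF3 and type I interferon. IRAK-M, the product of Irak3, and TOLLIP restrain the MyD88 branch, and IRAK-M is known for its part in endotoxin tolerance. On these grounds Irak3 and Tollip are grouped as inhibitory and the other 8 genes as activating.

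Probes are numbered by brightness within a gene. For Ly96, Irak2, Traf6 and Cd14 the probes of a gene differed in sign, and for Irak3 they did not. Sequences are shown for the Ly96 probes and for the third probes of Irak2 and Irak3. The other Irak2 and Irak3 probes are not shown. The dimmer Ly96 probe (mm9 chr1:16678610-16678669, plus strand) shares no 20-base stretch with a probe of another gene. Of the brighter one (mm9 chr1:16699612-16699671, plus strand), 31 of 60 bases are an uninterrupted repeat of A and C, and 30 bases are shown with the start of the repeat in capitals. It shares a 20-base stretch with 85 probes of other genes on the array. The third Irak2 probe (mm9 chr6:113643695-113643754, plus strand) and the third Irak3 probe (minus strand) each hold a frame without a stop codon. So do the other probes of Ly96, Irak2 and Irak3, and this does not set the printed ones apart. The third Irak3 probe spans 3786 bases of the genome, mm9 chr10:119615854-119619639, so the probe crosses an intron.
Ly96 probe 2: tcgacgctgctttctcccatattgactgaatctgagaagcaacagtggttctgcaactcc
Ly96 probe 1, 30 bases: tgctgaatACACACACACACACACACACAC
Irak2 probe 3: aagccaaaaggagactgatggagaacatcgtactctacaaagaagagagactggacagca
Irak3 probe 3: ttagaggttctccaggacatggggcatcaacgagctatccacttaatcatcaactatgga

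The 75th percentile of intensity, to which each array was scaled, was 544 for LPS, 504 for LOC1 and 508 for LOC3, and signals were well above background for 47.8% to 51.9% of 56605 probes. No spot was saturated, and all arrays lay on 1 slide and in 1 scan. All 8 macrophage markers were well above background on each array, with summed intensities of 374714 to 455203. Single markers differed from LPS more than the sum, Csf1r being 1.85-fold lower with LOC1 and 1.63-fold lower with LOC3, and Aif1 1.62-fold and 1.80-fold higher. Their part in the results was not tested. The 5 markers of other cell types summed to 515 to 544. Of these, Ly6g was not well above background on any array, Epcam was so only with LPS, and Cd3e, Col1a1 and Pecam1 were on all 3. The reference gene Actb lay 0.03 (LOC1) and 0.08 (LOC3) above LPS on the log2 scale, and Gapdh 0.26 and 0.30 above it. Probes that each array carries 10 times gave the spot noise, as a technical SD of the log2 difference from LPS, which was 0.06 for bright probes with either strain, and 0.27 with LOC1 or 0.33 with LOC3 for dim ones, under 0.5 times the 75th percentile. This SD rests on 269 bright probes and 10 dim ones, and leaves out the variation between cultures.

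Irak3, which encodes the inhibitory kinase-like protein IRAK-M, stood furthest from the LPS array among the 10 genes and was higher with both strains. Its brightest probe read 3571 on the LPS array, 5855 on the LOC1 array and 6180 on the LOC3 array. The second probe gave 887, 1457 and 1426, and the third, which crosses exons, gave 442, 739 and 856. On all 3 probes both lactobacilli arrays were above the LPS array. Relative to LPS, the log2 differences with LOC1 were 0.82, 0.83 and 0.85, which is 1.77-fold, 1.77-fold and 1.80-fold. With LOC3 they were 0.89, 0.79 and 1.05, or 1.85-fold, 1.72-fold and 2.08-fold, so only the third probe passed 2-fold, and only with LOC3. All 6 of these values were at least 12.2 times the technical SD. Of all genes compared, 3.96% had a larger rise than Irak3 with LOC1 and 3.70% with LOC3.

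**Figure D1:**
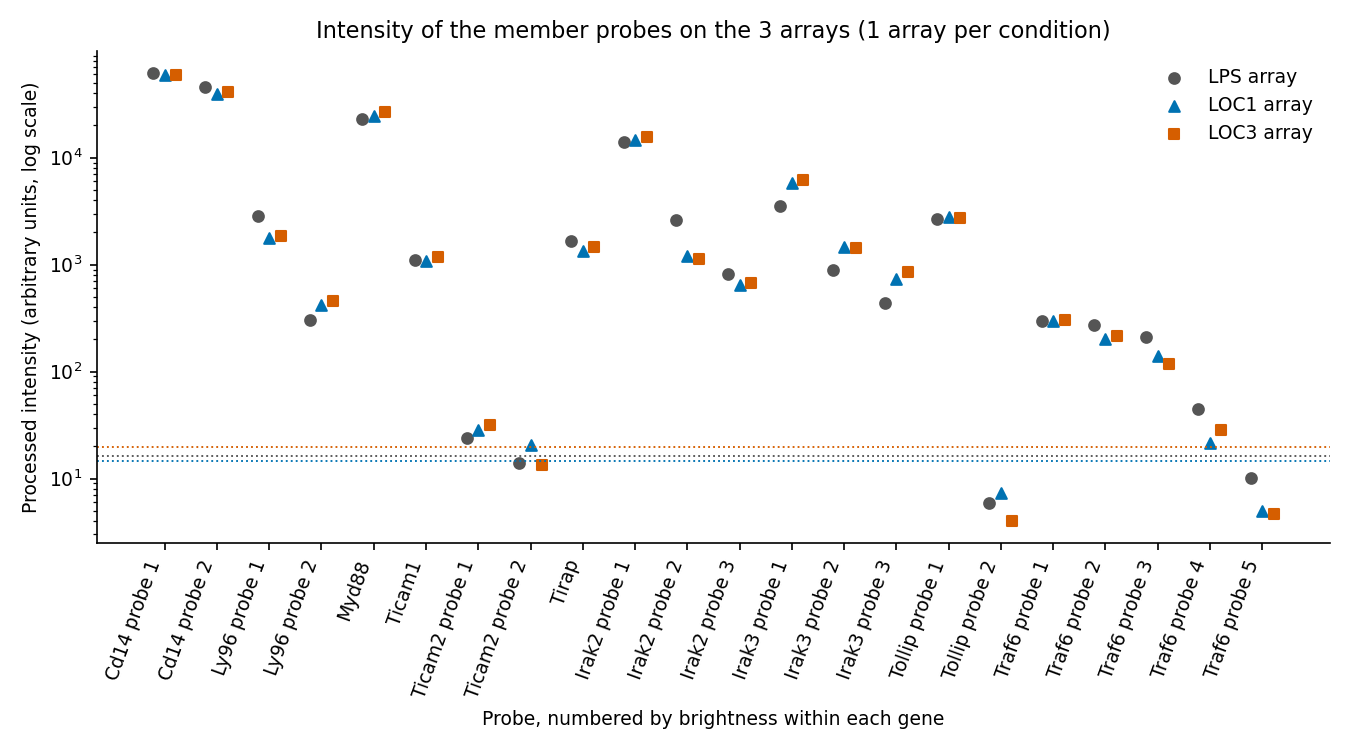
Processed intensity (arbitrary units, log axis) of all 22 member probes on the LPS (circles), LOC1 (triangles) and LOC3 (squares) arrays; dotted lines mark the lowest intensity well above background on each array, 16.3, 14.5 and 19.8 in that order. The 3 Irak3 probes lie higher on both lactobacilli arrays than on the LPS array, while the brightest probes of Cd14, Myd88, Ticam1 and Tollip lie close together; heights of different probes are not comparable.

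Tollip, the other inhibitory member, encodes an adaptor that binds IRAK-1 and takes part in endosomal sorting. Its brighter probe read 2653 on the LPS array, 2791 on the LOC1 array and 2731 on the LOC3 array. The differences of 0.18 and 0.14 on the log2 scale were 1.14-fold and 1.10-fold, and lay within the range of the activating members. The second Tollip probe did not clear background on any of the arrays.

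The co-receptor Cd14, a lipid-anchored protein that delivers LPS, was about level across the arrays. Its brighter probe read 61731 on the LPS array, 59445 on the LOC1 array and 59210 on the LOC3 array, and the other had 45860, 39056 and 41234. The log2 differences were 0.06 and -0.12 with LOC1 and 0.04 and -0.05 with LOC3. The brighter probe turned slightly negative under quantile normalization and when the 75th percentile was taken over probes well above background on all arrays, so no direction can be given for Cd14.

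The Ly96 probes went opposite ways. The brighter one, with the repeat of A and C, read 2868 on the LPS array, 1778 on the LOC1 array and 1862 on the LOC3 array. It was lower by 1.49-fold with LOC1 and 1.44-fold with LOC3. The other probe, which lies nearer to the start of the gene, had 304, 423 and 460, and was higher by 1.501-fold with LOC1 and 1.62-fold with LOC3. On the log2 scale these were -0.58 and -0.52 against 0.59 and 0.70, each more than 8 times the technical SD. Whether the shared repeat has a part in this was not tested. Their mean was 0.00 with LOC1 and 0.09 with LOC3, so the gene has no single direction here.

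Among the adaptors, Myd88, the hub of the branch to NF-kB, was slightly higher. Its only probe read 23217 on the LPS array, 24438 on the LOC1 array and 26581 on the LOC3 array. The log2 differences of 0.18 and 0.30 were 3.22 and 4.60 times the technical SD. Of all genes compared, 29.33% had a larger rise than Myd88 with LOC1 and 20.08% with LOC3. Tirap, the sorting adaptor that brings MyD88 to the membrane, had 1661, 1333 and 1452, with differences of -0.21 and -0.09. The sign for Tirap turned when each array was centred on its median, a scaling that put the median of all genes at 0.22 with either strain. Relative to that median Tirap was again the lower one.

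Ticam1, which encodes TRIF, read 1108 on the LPS array, 1080 on the LOC1 array and 1175 on the LOC3 array. The differences after scaling were 0.07 and 0.18 on the log2 scale. Ticam2 was dim throughout, with 23.9, 28.2 and 31.4 on its brighter probe, where the lowest signals well above background were 16.3, 14.5 and 19.8. Its differences of 0.35 and 0.50 were 1.31 and 1.499 times the technical SD of dim probes. The second Ticam2 probe was well above background only with LOC1, at 20.6 against 14.1 with LPS, which is at least 1.36-fold higher.

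Irak2, a kinase-like IRAK that sustains signalling after the first wave, had probes that disagreed. The brightest read 14067 on the LPS array, 14620 on the LOC1 array and 15490 on the LOC3 array, or 0.17 and 0.24 on the log2 scale. The probe with the next highest signal had 2608, 1195 and 1138. It was lower by 2.02-fold with LOC1 and 2.14-fold with LOC3, the only member probe past 2-fold with both strains. It lies at mm9 chr6:113618349-113618408, away from the other 2 probes (the brightest at chr6:113644904-113644963), and was designed to a separate cDNA record. The third probe, printed above, had 813, 639 and 675, with differences of -0.24 and -0.17. Whether the probe that stands apart reads the same transcript as the others was not tested.

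Traf6, which joins ubiquitin chains that recruit the TAK1 kinase complex, was represented by 5 probes. Its brightest probe read 298 on the LPS array, 300 on the LOC1 array and 304 on the LOC3 array, or 0.12 and 0.13 on the log2 scale. The other 3 measured probes were lower with both strains, from -0.32 to -0.94 with LOC1 and from -0.24 to -0.71 with LOC3. All 3 fall in the dim class, where 2 of 6 values exceed 2 times the technical SD. That SD rests on 10 probes, and the brightest of the 3, at 275 on the LPS array, lies near the class limit. The fifth probe did not clear background anywhere.

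**Figure D2:**
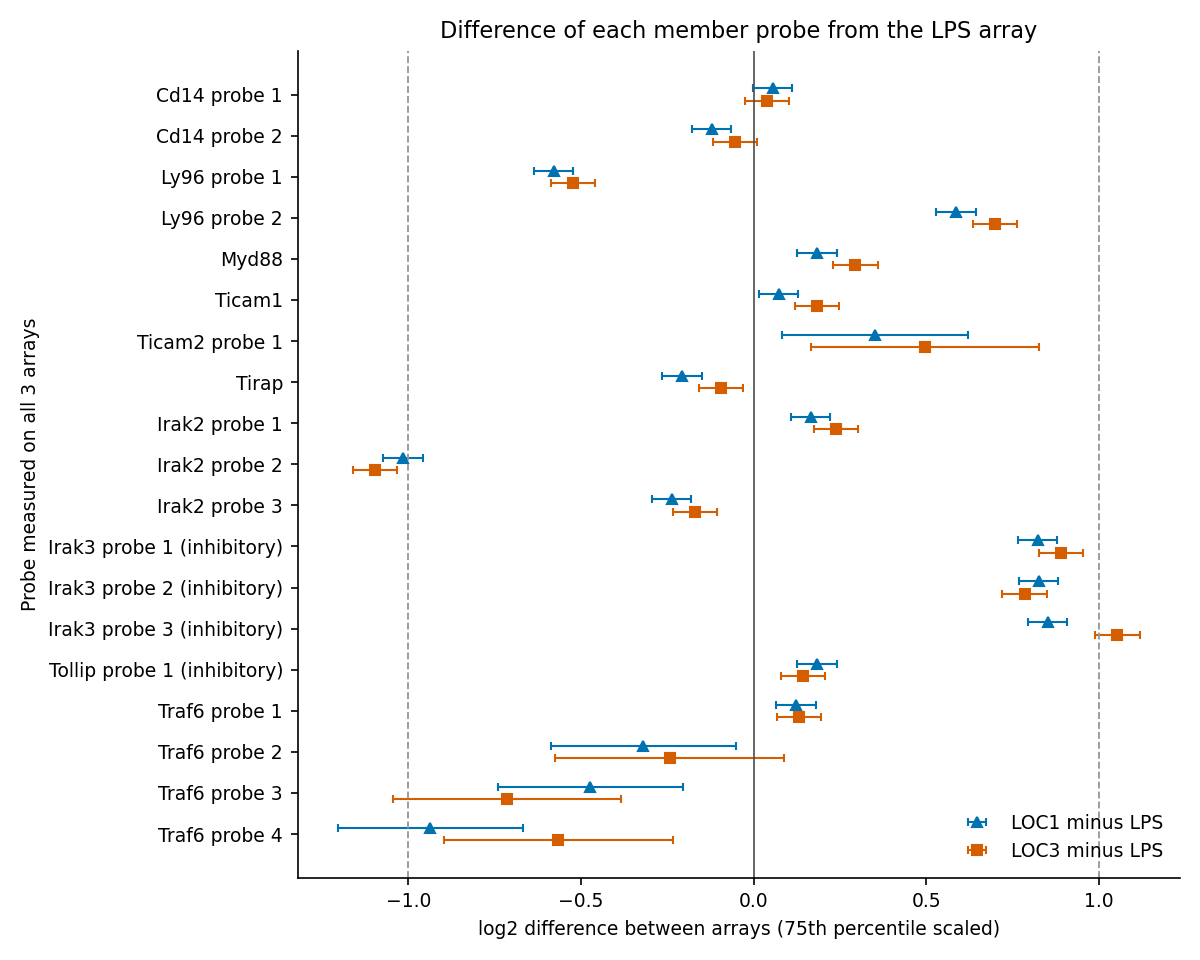
Difference from the LPS array on the log2 scale for the 19 member probes measured on all 3 arrays, LOC1 as triangles and LOC3 as squares; bars are 1 technical SD and dashed lines mark 2-fold. All 3 Irak3 probes lie at 0.79 or more, whereas probes of Ly96, Irak2 and Traf6 fall on both sides of 0.

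Taken by gene, 0 of the 10 members were past 2-fold with LOC1 and 0 with LOC3. Of all genes compared, 6.36% were past 2-fold with LOC1 and 6.24% with LOC3. At 1.5-fold, 1 member was higher with each strain, which was Irak3, against 7.63% of all genes with LOC1 and 7.79% with LOC3. No member was 1.5-fold lower, 0 of 10 against 11.5% of genes with LOC1 and 9.61% with LOC3. These counts take each gene from its brightest probe. For Ly96 that is the repeat probe, which lay just under the threshold for lower with LOC1, while its other probe was past 1.5-fold higher with both strains. Under centring on the median, Irak3 was past 2-fold with both strains, at 1.04 and 1.08, again against a median of all genes of 0.22.

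The 8 activating members had a median log2 difference of 0.10 with LOC1, from -0.58 for Ly96 to 0.35 for Ticam2, and 6 of 8 were above 0. With LOC3 the median was 0.16, from -0.52 to 0.50, and again 6 of 8 were above 0. The count above 0 was 5 to 7 under the other scalings and 4 with the mean of the detected probes, where the median itself was -0.01 with LOC1 and 0.04 with LOC3, so the activating members have no settled direction. The 2 inhibitory members had a median of 0.50 with LOC1 and 0.52 with LOC3. The median of inhibitory members lay above that of activating ones by 0.41 with LOC1 and 0.36 with LOC3, where all genes had a median of -0.00 and 0.03. With 2 genes in the inhibitory group this gap rests on Irak3, since Tollip alone lay within the activating range.

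Between the strains, differences were small beside those from LPS for Irak3. On the brightest probes the log2 difference of LOC1 from LOC3 ran from -0.145 for Ticam2 to 0.04 for Tollip, and 8 of 10 genes were lower with LOC1. For Myd88, Ticam1 and Tirap it was -0.11, where the technical SD between these arrays was 0.06. Irak3 differed by -0.07 on its brightest probe, 0.04 on the second and -0.20 on the third.

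The deposited ratios set each condition against unchallenged macrophages. They list 6 of the 22 member probes as at least 2-fold higher with LPS alone, for 5 genes. Of all probes on the array 7.08% are listed so, and of all gene names 9.7%. No member probe is listed as lower, where 6.31% of all probes are. These shares are not like for like. On the LPS array 51.9% of all probes were well above background, while 19 of the 22 member probes were so on all 3 arrays. Irak3 had the highest ratio of the 6, 3.13 on the log2 scale or 8.73-fold, with an implied unchallenged intensity of 409. With LOC1 its ratio was 3.99 and with LOC3 4.06. These ratios rest on the brightest Irak3 probe, 1 of 3. The others were well above background on all arrays but are not listed for any condition. Myd88 was listed at 2.29, or 4.89-fold, with 2.51 and 2.62 for the strains. Ticam1 was listed at 1.03, 1.14 and 1.25.

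Irak2 was listed through 2 probes, the brightest at 1.45 with LPS, 1.65 with LOC1 and 1.73 with LOC3, and the probe at the separate position at 2.78, 1.80 and 1.72. For Ticam2 the listed 2.80 implies an unchallenged intensity of 3.42, under the lowest signal well above background, and only at least 1.46-fold can be stated. The dimmer Ly96 probe is listed only for LOC3, at 1.09. Rebuilt from the intensities, its ratio with LPS alone was 0.35. The probes of Cd14, Tirap, Tollip and Traf6 carry no listed value, nor do the other 2 Irak3 probes.

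**Figure D3:**
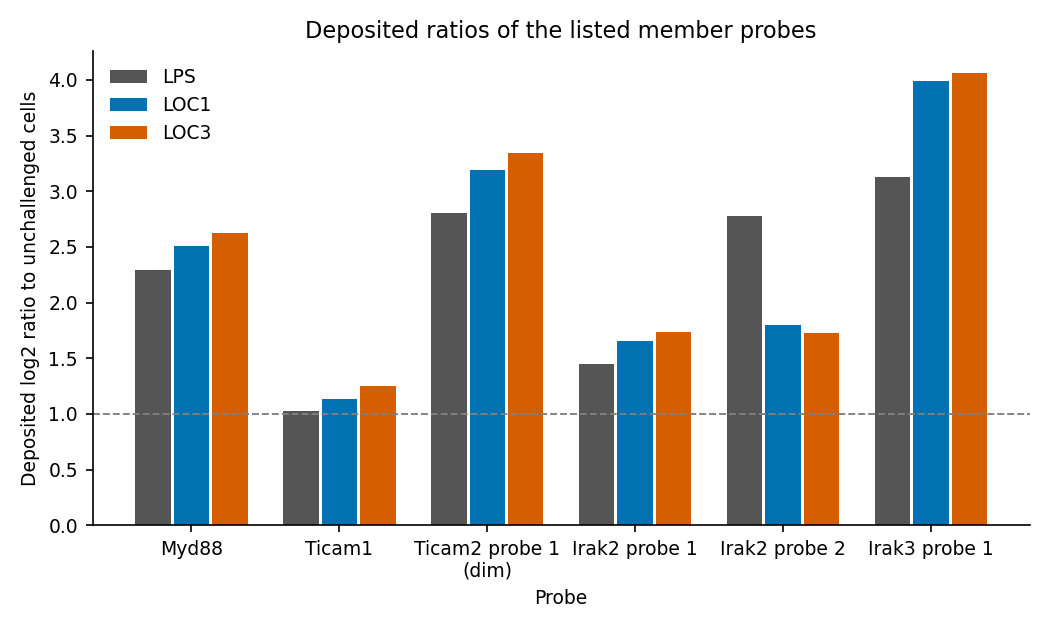
Log2 ratio to unchallenged macrophages as deposited by the authors for the 6 member probes listed with LPS alone, with LPS in grey, LOC1 in blue and LOC3 in orange; the dashed line marks 2-fold, under which no value is listed. The brightest Irak3 probe, the only one of that gene listed, goes from 3.13 with LPS to 3.99 and 4.06 with the strains. The second Irak2 probe goes from 2.78 to 1.80 and 1.72. The Ticam2 ratio rests on a dim signal.

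Of the 10 members, 7 matched promoter windows of RefSeq (GRCm38.p6), all but Cd14, Ly96 and Ticam2, and the 250 bases before the transcript start were searched on both strands in 9 windows. The interferon response element core GAAANNGAAA was found in 1 member, Myd88, at -40 to -31 from the start, and in 2.98% of all 32851 windows. The NF-kB consensus was found in 0 of the 9 windows and in 7.25% of all, and the AP-1 motif TGANTCA in 0 of 9 and 6.75%. The Myd88 window (chr9:119340019-119340268, minus strand) is shown with the match in capitals. The upstream Irak3 window (chr10:120202131-120202380, minus strand) is beside it as that of the gene with the highest listed ratio. A match in letters is a description and not a site.
Myd88: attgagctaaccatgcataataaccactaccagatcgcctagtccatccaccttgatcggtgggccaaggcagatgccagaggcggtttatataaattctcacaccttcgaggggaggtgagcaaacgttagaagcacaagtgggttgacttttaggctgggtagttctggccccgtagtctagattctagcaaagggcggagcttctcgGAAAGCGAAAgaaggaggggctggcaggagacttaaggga
Irak3: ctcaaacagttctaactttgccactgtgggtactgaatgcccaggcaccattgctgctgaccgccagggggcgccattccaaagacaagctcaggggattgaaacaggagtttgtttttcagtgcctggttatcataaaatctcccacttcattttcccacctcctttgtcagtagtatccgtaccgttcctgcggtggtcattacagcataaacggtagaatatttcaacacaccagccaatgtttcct

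Around these genes, 44 others of the TLR4 pathway were followed in 5 lists. With LOC1, 1 of 43 compared was past 2-fold higher and 1 lower, and with LOC3 0 of 42 were higher and 1 lower. Their median difference was 0.04 with LOC1 and 0.05 with LOC3. By list, the median with LOC1 was -0.26 for the receptor and its homologues, 0.09 for the MyD88 branch kinases and ubiquitin enzymes, 0.12 for the TRIF branch, -0.03 for other restraining genes and -0.13 for TIR domain or MyD88 partners. With LOC3 the medians were -0.27, 0.11, 0.09, -0.13 and 0.09 in that order. In the deposited ratios, 13 of the 44 had a probe listed as higher with LPS and 6 had one listed as lower, Tlr4 among both. Of all gene names on the array, 9.7% had a probe listed as higher and 8.66% one listed as lower. Il1rl1, which encodes the IL-33 receptor ST2 and restrains TLR4 signalling, was the lower gene with both strains. Its brightest probe read 534 on the LPS array, 159 on the LOC1 array and 172 on the LOC3 array, which is 3.12-fold and 2.90-fold lower. Another Il1rl1 probe, not well above background with LPS and compared only with LOC3, was at least 0.65 higher on the log2 scale. Peli2, a ubiquitin ligase of IRAK proteins, had 47.9 with LOC1 and was not well above background with LPS or LOC3, which is at least 3.17-fold higher with LOC1.

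The receptor Tlr4 read 4824 on the LPS array, 3181 on the LOC1 array and 3732 on the LOC3 array on its brightest probe, or -0.49 and -0.27 on the log2 scale. Its other probes reached 0.06 and 0.33. Irak1, the kinase that IRAK-4 activates, was lower on each of its 3 probes, from -0.33 to -0.24 with LOC1 and from -0.30 to -0.23 with LOC3. Irak4 was at 0.04 and 0.00 on its brightest probe and at -0.30 and -0.42 on the other. Among the restraining genes, Dok2, an adaptor that dampens LPS signalling, had 16570, 7741 and 9232, or 1.98-fold lower with LOC1 and 1.67-fold lower with LOC3. Its other probe was at -1.71 and -1.27 on the log2 scale, past 2-fold with both strains.

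**Figure D4:**
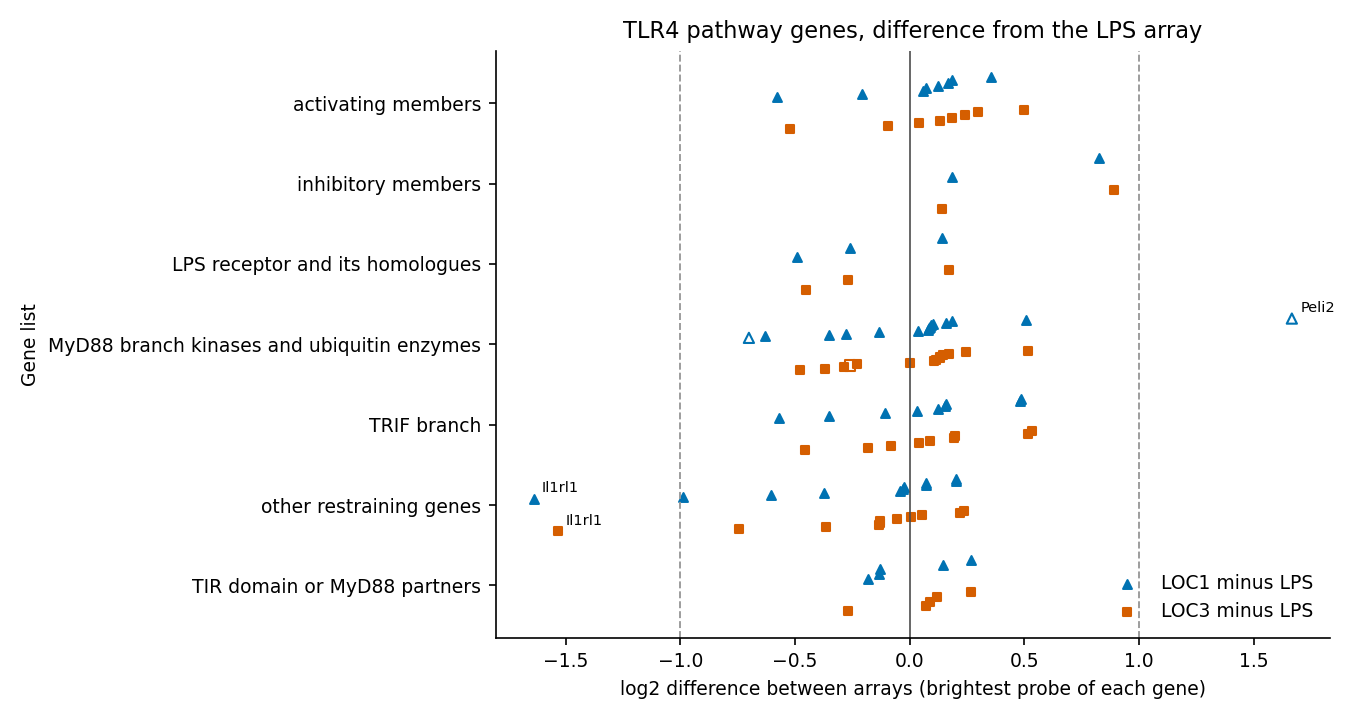
Log2 difference from the LPS array for the 8 activating and 2 inhibitory members and the 44 other TLR4 pathway genes by list, taken from the brightest probe of each gene, LOC1 as triangles and LOC3 as squares; open symbols are bounds and dashed lines mark 2-fold. Outside 2-fold lie Il1rl1 at -1.64 and -1.54 and, with LOC1, Peli2 at 1.67.

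The genes whose differences were nearest to those of Irak3, by distance over both log2 differences among 17400 genes measured on all 3 arrays, were Lekr1, Bbip1 and Erbin and a pair of array entries with no gene symbol. They lay within 0.03 of it, at 0.81 to 0.84 with LOC1 and 0.87 to 0.90 with LOC3.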

How the data were processed

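RNA from 3 conditions of the RAW264.7 line, 1 array each, was measured on 1-colour Agilent mouse arrays. The authors deposited spot intensities from Feature Extraction (12.0.3.1 in the file headers), which had subtracted background and removed spatial trends, with no scaling between arrays. The log2 ratios to unchallenged macrophages were deposited by the authors only where they reached at least 2-fold, the smallest listed size being 1.00 on the log2 scale. Differences between deposited columns matched those of the intensities, within 0.01, after a constant shift of 0.04 on the log2 scale for each strain.

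Outlier spots were left out, spots of a probe were averaged, and each array was scaled to its own 75th percentile on the log2 scale. Signals that did not clear background were set to the lowest one on that array that did. A gene was taken from its brightest probe, and a gene entered a comparison if either array measured it above background, with thresholds of 2-fold and 1.5-fold. The methods' t-test and limma fit need replicates and were not run, so the number of arrays limits the precision. Named in the text are all members and their probes, other TLR4 pathway genes past 2-fold with either strain, Tlr4, Irak1, Irak4 and reference genes. Of the 5 entries nearest to Irak3, those with a gene symbol are named. Epcam, Col1a1, Pecam1, Cd3e and Ly6g are named as markers, and Dok2, Csf1r and Aif1 after their values were seen. Another marker of the list is not reported here. The members and lists were chosen with earlier results of these data known. The procedure was tested on simulated data. Python 3.11.15, numpy 2.4.6, pandas 2.3.3, matplotlib 3.10.9, R 4.3.3 and limma 3.58.1 were used. Alternatives changed the scaling, the background correction, the spots, the gene summary, the filter, the source of values and the threshold. Promoter windows and their build are those of RefSeq, and probe positions (mm9) were not converted to it.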

Additional observations from a re-analysis of the deposited data

How the results depend on the processing

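Every Irak3 value stayed above 0, from 0.76 to 1.04 with LOC1 and from 0.81 to 1.08 with LOC3. Members past 2-fold went from 0 to 1 with each strain when arrays were centred on their median and at a 1.5-fold threshold. The excess of inhibitory over activating members, 0.41 with LOC1 and 0.36 with LOC3, became 0.52 and 0.49 with the mean of the detected probes, and 0.65 and 0.62 with the difference of deposited columns, which covers 5 members. Other pathway genes past 2-fold with LOC1 went from 2 to 1 with normexp or when both arrays had to be well above background, to 3 with quantile normalization, the 75th percentile over probes well above background on all 3 arrays, the mean of the detected probes or the deposited columns, and to 6 at 1.5-fold. With LOC3 they went from 1 to 2 with no filter and no floor, with the deposited columns and at 1.5-fold, and to 0 at 3-fold. The members listed with LPS were 4 or 5 under all alternatives. Of 206 other values by setting, 144 moved by less than the technical SD (of dim probes for Ticam2) and 62 by more. With the mean of the detected probes, Irak2 turned from 0.17 to -0.36 with LOC1 and from 0.24 to -0.34 with LOC3, Traf6 from 0.12 to -0.40 and from 0.13 to -0.35, and Cd14 and Ly96 also turned. Ticam2 is limited by signal close to background. No paired analysis was possible because each condition has 1 array, and no array could be left out.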
